A study of Mus musculus with 13 samples.

Results

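Hox genes were examined in UG26-1B6, a stromal cell clone from the urogenital ridge of the midgestation mouse embryo that is used to keep haematopoietic stem cells in culture. The members were all genes of the HoxA, HoxB, HoxC and HoxD clusters for which the array had a probe set annotated with that gene symbol alone, each read from its probe set with the highest mean over the 13 arrays. This gave 33 Hox genes among 18193 genes measured by such a probe set. Hox genes without such a probe set were not analysed here. Expression was profiled on Affymetrix mouse arrays in 5 groups. Stroma before co-culture, collected by trypsinisation, formed the day 0 group (n = 3). A medium control was taken 24 h after a change of medium (n = 2). Stroma grown to confluence and irradiated with 30 Gy was kept with LSK cells, which are blood progenitors negative for lineage markers and positive for Sca-1 and c-Kit, for 1 day (n = 3), 2 days (n = 3) or 3 days (n = 2). The labels state irradiation for the co-cultured stroma; for the other groups it is unstated, as is any removal of LSK cells before RNA was made, and all groups are the same clone. Replicates are called biological in the sample titles and technical in the design text, and no source ties them to separate cultures, so a p-value here reflects the scatter of these arrays, which may be technical.

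Hox genes encode homeodomain transcription factors that give cells an address along the body axis. They lie in 4 clusters, and the order of the genes in a cluster, from paralogue group 1 to group 13, follows the order in which they are used from the head end to the tail end of the embryo. Fibroblasts and other mesenchymal cells keep much of this pattern in culture, and posterior genes of HoxA and HoxD act in the developing urogenital tract. Cofactors of the PBC and Meis families bind DNA together with Hox proteins, Polycomb proteins hold silent Hox genes off, and retinoic acid switches genes at the anterior end of the clusters on.

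The values are deposited log2 levels, and a level above 5 is called expressed here. At day 0, 15 of the 33 measured Hox genes had a mean above 5, or 45.5%, against 47.7% of all 18193 genes. They comprised 5 of 9 measured HoxA genes (Hoxa5, Hoxa7, Hoxa9, Hoxa10 and Hoxa11), 5 of 9 HoxB genes (Hoxb3, Hoxb4, Hoxb5, Hoxb6 and Hoxb9), 5 of 7 HoxC genes (Hoxc4, Hoxc5, Hoxc8, Hoxc10 and Hoxc13) and 0 of 8 HoxD genes. Probe sets differ in how brightly they report, so levels are compared between arrays and not between genes.

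Upstream sequences of 2 paralogue pairs are shown, taken from pairs in which one member was above 5 at day 0 and the other was not. They are the 250 bases before the RefSeq start on GRCm38.p6, and capitals mark CpG dinucleotides. Hoxa9 (chr6:52227371-52227620, minus strand) and Hoxa11 (chr6:52245811-52246060, minus strand) were above 5. Hoxd9 (chr2:74697513-74697762, plus strand) and Hoxd11 (chr2:74679308-74679557, plus strand, the outer of 2 listed starts) were not.
Hoxa9: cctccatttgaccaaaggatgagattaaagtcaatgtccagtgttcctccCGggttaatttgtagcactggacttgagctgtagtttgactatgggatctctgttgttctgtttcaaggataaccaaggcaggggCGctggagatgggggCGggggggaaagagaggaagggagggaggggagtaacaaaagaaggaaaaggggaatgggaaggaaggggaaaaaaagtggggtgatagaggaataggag
Hoxd9: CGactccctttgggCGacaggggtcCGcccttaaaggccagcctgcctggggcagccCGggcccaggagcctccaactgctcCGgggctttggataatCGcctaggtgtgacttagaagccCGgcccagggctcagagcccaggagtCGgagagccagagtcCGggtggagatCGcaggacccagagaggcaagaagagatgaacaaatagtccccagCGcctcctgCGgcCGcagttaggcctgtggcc
Hoxa11: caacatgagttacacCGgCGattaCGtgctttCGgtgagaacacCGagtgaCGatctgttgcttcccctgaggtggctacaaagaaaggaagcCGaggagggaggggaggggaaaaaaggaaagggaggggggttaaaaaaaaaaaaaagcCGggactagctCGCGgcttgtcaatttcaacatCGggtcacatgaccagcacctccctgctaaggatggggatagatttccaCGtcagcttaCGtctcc
Hoxd11: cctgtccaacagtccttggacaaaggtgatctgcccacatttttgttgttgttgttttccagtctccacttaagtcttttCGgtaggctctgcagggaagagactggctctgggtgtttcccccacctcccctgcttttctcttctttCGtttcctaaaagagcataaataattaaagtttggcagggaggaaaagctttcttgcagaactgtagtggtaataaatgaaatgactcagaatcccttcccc
The Hoxa9 window holds 3 CpG, the Hoxd9 window 13, the Hoxa11 window 13 and the outer Hoxd11 window 2, while the window at the inner Hoxd11 start (chr2:74682073-74682322, not shown) holds 20. CpG count therefore did not order the second pair in one direction. Hoxa10 and Hoxd10 form a pair of the same kind that is not shown. Hoxa10 windows hold 20 and 7 CpG and the Hoxd10 window 20. The promoter table listed 7 of the 15 expressed genes, with 8 windows and a median of 10.5 CpG, and 12 of the 18 others, with 13 windows and a median of 13. The median over all 32851 windows in the table was 6. The motif TATAAA, searched on both strands, was found in 12.5% of the expressed windows, 7.69% of the windows of genes not above 5 and 12.4% of all windows. The motif CCAAT, also on both strands, was found in 25%, 69.2% and 33.8%. HoxD supplied 8 of the 12 genes not above 5 and 9 of their 13 windows, and none of the expressed genes. The 2 sets therefore also differ by cluster. These counts describe the letters in few windows and were not tested.

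In paralogue order, the expressed genes at day 0 ran from group 3 to group 13. None of the measured genes of groups 1 and 2 was above 5. In group 3 this held for Hoxb3 alone, in group 4 for Hoxb4 and Hoxc4 (2 of 3), and in group 5 for all 3 genes (Hoxa5, Hoxb5 and Hoxc5). One gene each was above 5 in group 6 (Hoxb6), group 7 (Hoxa7) and group 8 (Hoxc8), of 2 measured in each. Groups 9 and 10 had 2 of 4 (Hoxa9 and Hoxb9) and 2 of 3 (Hoxa10 and Hoxc10), group 11 had Hoxa11 of 2, group 12 had 0 of 1, and group 13 had Hoxc13 of 4. The choice of 5 sets this count only near the line. Just above it lay Hoxb6 at 5.01 ± 0.36 (SD, n = 3), Hoxb5 at 5.40 ± 0.79 (SD, n = 3) and Hoxa11 at 5.60 ± 0.96 (SD, n = 3), and just below it Hoxc6 at 4.04, Hoxb13 at 3.74 and Hoxa3 at 3.70. A line at 4 gave 16 genes and a line at 6 gave 12.

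**Figure D1:**
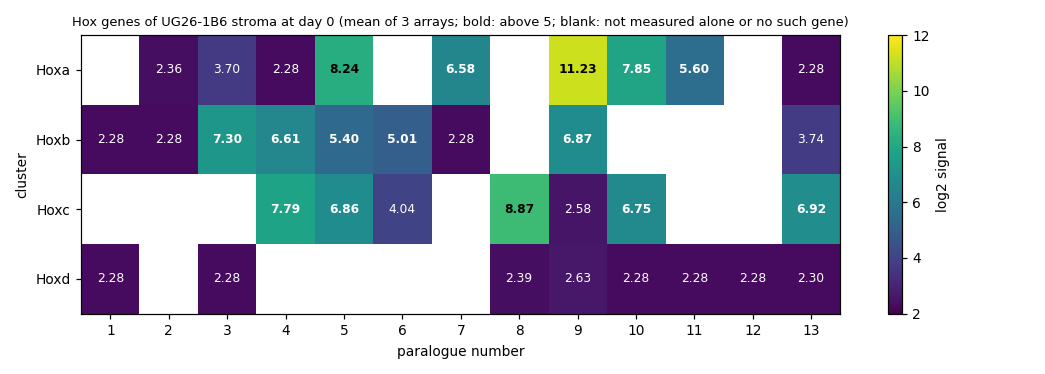
Mean log2 level of each measured Hox gene at day 0, with clusters in rows and paralogue groups in columns; colour and number give the level, blank cells are genes not measured or absent from the genome, and bold numbers mark the 15 genes above 5. All 8 HoxD cells lie at 2.63 or below, while HoxA, HoxB and HoxC have 5 genes each above 5.

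HoxA was expressed in its middle and posterior portion. Hoxa5, a gene of lung and axial skeleton patterning, read 8.90, 8.15 and 7.68 on the day 0 arrays. Hoxa7, which patterns thoracic vertebrae, read 5.46, 6.84 and 7.43. Hoxa9, a regulator of blood progenitors and of posterior patterning, read 10.84, 11.69 and 11.17. These 3 genes were above 5 on each day 0 array. Hoxa10, needed in the uterus and for the lumbar boundary, read 8.47, 7.80 and 7.27. Hoxa11, which acts in uterus, kidney and forearm, read 4.50, 6.05 and 6.26, so 1 of the 3 arrays was under 5. Hoxa2, Hoxa3, Hoxa4 and Hoxa13, the last a gene of the distal limb and the genital tubercle, did not exceed 4.07 on any array.

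HoxB was expressed between Hoxb3 and Hoxb9. Hoxb3 read 7.28, 7.56 and 7.06 at day 0, and Hoxb4, a gene known for expanding haematopoietic stem cells when overexpressed, read 6.37, 6.87 and 6.59. Each had an SD of 0.25 (n = 3), the smallest among the 15 genes. Hoxb5 read 4.94, 6.31 and 4.94, and Hoxb6 read 4.61, 5.31 and 5.10. These 2 genes sat at the line itself, with arrays on either side of it. Hoxb9, which patterns ribs and sternum, read 6.62, 7.27 and 6.73. Hoxb1, Hoxb2, Hoxb7 and Hoxb13 were not above 5 on any array, and Hoxb1 and Hoxb7 lay at the lowest value of the table, 2.28, on all 13.

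HoxC had the widest span, from Hoxc4 to Hoxc13. Hoxc4 read 6.22, 8.77 and 8.36 at day 0, the widest spread of the 15 genes (SD 1.37, n = 3). Hoxc5 read 7.15, 6.06 and 7.36. Hoxc8, which patterns thoracic vertebrae and forelimb motor neurons, read 8.99, 8.38 and 9.25. All 3 genes were above 5 on every day 0 array. Hoxc10, a gene of lumbar and hindlimb identity, read 6.61, 7.34 and 6.29. Hoxc13, known for its role in hair and nail, read 6.86, 6.44 and 7.44. Hoxc6 stayed between 3.77 and 4.26 on the 13 arrays, and Hoxc9 did not exceed 3.37.

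HoxD was read at or near background throughout. Hoxd1, Hoxd10 and Hoxd12 lay at 2.28 on all 13 arrays. Hoxd9 lay at 2.63 on 12 of 13 arrays, and Hoxd8 ranged from 2.37 to 3.65. The highest HoxD level on any array was 3.72, for Hoxd3 on the first LSK day 2 array. Posterior HoxD genes pattern the limb and the genital tract. A level near the lowest value states only that the probe set gave no signal. Of the 18 genes not above 5 in the 4 clusters, 13 had a single probe set, and none had any probe set above 5 on any array. Among expressed genes, 6 had several probe sets, and in 5 of these another probe set was not above 5 at day 0, in 4 of them under 3 (Hoxa9, Hoxa10, Hoxb4 and Hoxc5). A silent probe set therefore did not always mean a silent gene on this array.

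The stromal identity of the samples was checked with markers. At day 0, 8 of 10 stromal markers were above 5 (Thy1 and Lum were at the lowest value), as were 1 of 16 blood cell, 1 of 6 endothelial and 0 of 6 epithelial markers. The number of blood markers above 5 was 0 or 1 on arrays without LSK cells, 4, 6 and 5 on the LSK day 1 arrays, 12, 7 and 8 on day 2 and 8 and 9 on day 3, though Kit did not exceed 2.38 on any array. Stromal markers read lower in co-culture: over the 8 tested, the median difference from day 0 was -0.32 in the medium control, -1.31 on LSK day 1, -3.16 on day 2 and -1.54 on day 3. Of these 8, only Prrx1, a mesenchymal homeobox gene, passed on LSK day 1 (-2.34 ± 0.50 SE, adjusted p 0.0497 in limma) and day 2 (-3.31 ± 0.50, adjusted p 0.0194). Over all genes 2.15% and 2.26% passed. Not every marker was lower on each day. Over LSK days 1, 2 and 3, Pdgfrb differed from day 0 by 0.97, -0.87 and 0.39, and Vim by -0.37, -0.25 and 0.35. The first LSK day 2 array stood apart. Its best correlation with another array was 0.785 over probe sets, against at least 0.936 for the others. Its Gapdh 3' minus 5' difference was 8.96 (second LSK day 3 array 5.79, the rest 2.15 to 3.82), its poly-A spike-in mean was 14.51, and 4 of 10 stromal markers were above 5. The second LSK day 2 array also differed. Its median over tested genes was 6.61, where the first had 5.69 and the others 7.33 to 7.54. On it 39.6% of the genes above 5 at day 0 were over 2-fold below their day 0 mean, against 9.05% on the third. It stayed in the fits made without the first. Spike-in means were 4.58 to 8.48 on the 5 arrays without LSK cells and 9.98 to 14.51 on the 8 with them. The part of these differences in the results was not tested, and in RNA from whole samples fewer stromal cells and less RNA per cell cannot be told apart.

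Most of the Hox genes expressed at day 0 were still above 5 later by group means. On single later arrays the share was smaller than among all genes, but day 0 arrays already showed such a gap. By group means, 13 Hox genes were above 5 in the medium control, 13 on LSK day 1, 12 on day 2 and 13 on day 3, against 15 at day 0. No gene of the other 18 exceeded 5 on any array, so no Hox gene that read silent at day 0 was above 5 later. Hoxa5, Hoxa9 and Hoxc4 were above 5 on all 13 arrays. On single arrays the count was 12, 15 and 14 at day 0, 13 and 13 in the medium control, 14, 13 and 12 on LSK day 1, 4, 12 and 14 on day 2, and 12 and 11 on day 3. Of the 15 genes, 86.7% were above 5 on each medium control array, where 96.2% of all 8683 genes above 5 at day 0 were. The share was 80.0% to 93.3% on the LSK day 1 arrays (all genes 95.0% to 96.4%), 80.0% and 93.3% on the other day 2 arrays (87.8% and 97.1%) and 80.0% and 73.3% on day 3 (95.5% and 94.3%). The day 0 arrays themselves had 80.0%, 100% and 93.3% (97.8%, 98.7% and 98.4%), so the gap was present there too, except on the array at 100%. Hoxb6, Hoxb5 and Hoxa11 had day 0 means just above 5 (5.01, 5.40 and 5.60). On the medium control arrays the genes not above 5 were Hoxa11 (4.65 and 4.47) and Hoxb6 (4.61 on both). How much of the gap comes from such closeness to 5 was not tested. The count of 4, or 26.7% against 72.0%, belongs to the first LSK day 2 array. There, 12 of the 15 genes were over 2-fold below their day 0 mean, or 80.0%, where 54.1% of all 8683 genes above 5 at day 0 were. Hoxa9 at 11.29, Hoxc4 at 7.69 and Hoxa11 at 5.32 were the members not below all day 0 arrays on it. The mean of the blood markers was highest on this array, at 8.78. What part RNA of blood cells has in the Hox levels of co-culture arrays was not tested.

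**Figure D2:**
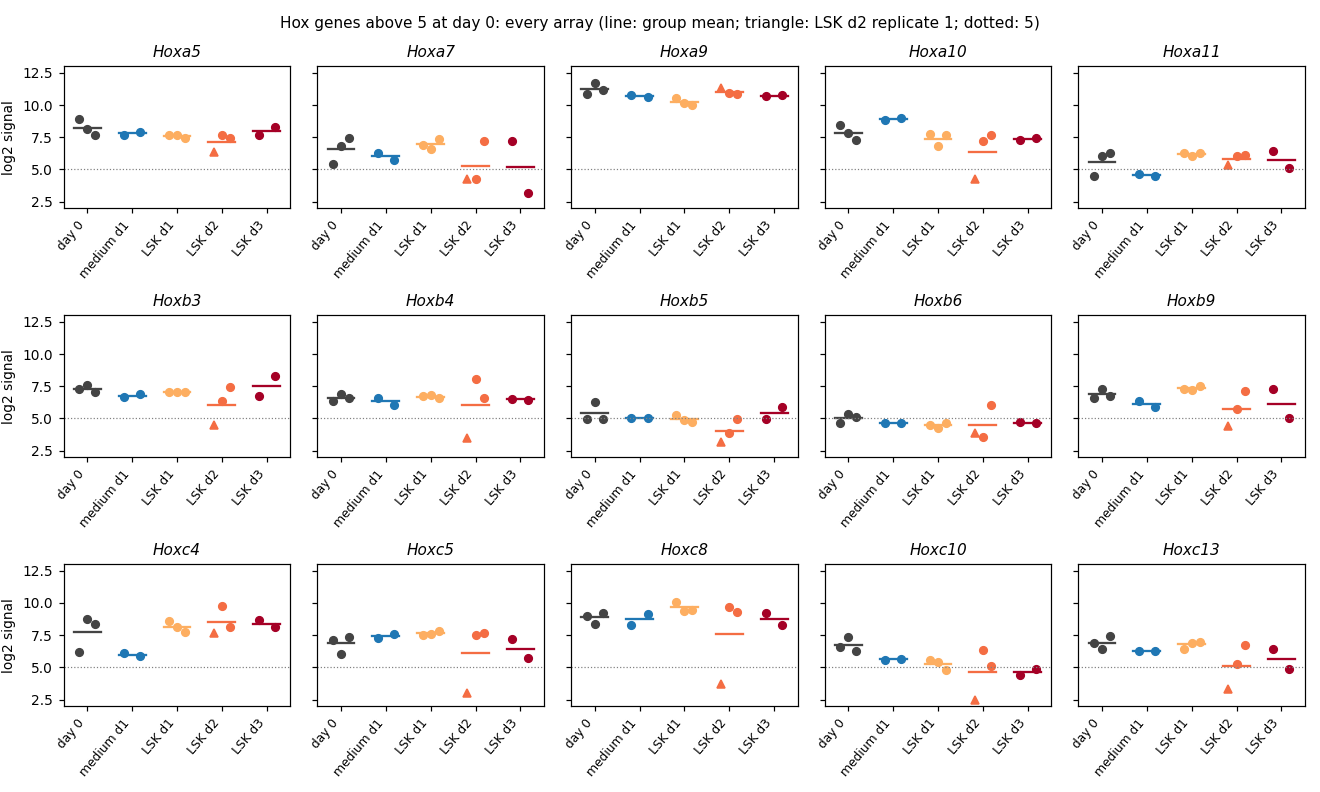
Log2 level of the 15 Hox genes above 5 at day 0 on each of the 13 arrays, 1 panel per gene. Points are arrays in group colours, bars are group means, a triangle is the first LSK day 2 array and the dotted line is at 5. The first LSK day 2 array is the lowest of all 13 for 10 of the 15 genes; Hoxa5, Hoxa9 and Hoxc4 stay above 5 throughout.

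The change of medium asks what a day of culture without LSK cells does to the Hox pattern. Hoxc4 was lower in the control and Hoxa10 higher, without either passing the test. Hoxc4 read 6.08 and 5.87 in the control, below each of the 3 day 0 values, the lowest of which was 6.22. Hoxc10 read 5.56 and 5.68, also below each day 0 value. Hoxa10 read 8.81 and 9.02, above each day 0 value. In limma, 0 of 23 tested Hox genes passed an adjusted p of 0.05 (1 had an unadjusted p under it), against 0.328% of all tested genes, and 0 of 23 against 1.36% without the first LSK day 2 array. The log2 difference was -1.81 ± 0.78 (SE) for Hoxc4 with an adjusted p of 0.498 in limma. It was -1.13 ± 0.90 for Hoxc10 (adjusted p 0.866 in limma) and 1.07 ± 0.85 for Hoxa10 (adjusted p 0.867 in limma). Of the 15 expressed genes, 13 had a lower mean in the control, with a median difference of -0.53, where the median over all tested genes above 5 at day 0 was -0.05. Control and day 0 arrays did not overlap for 9 of the 23 genes, or 39.1%, against a background of 43.3%.

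A noncoding transcript of the HoxB cluster did pass, as 1 of 2 tested noncoding Hox transcripts. The other, Hoxa11os, differed by -0.00 ± 0.27 (SE) between the medium control and day 0. Between LSK day 1 and the control it differed by 0.18 ± 0.27, and it did not pass. Hoxb5os, a long RNA from the strand opposite Hoxb5 and Hoxb6, read 9.43, 10.10 and 9.76 at day 0 and 6.69 and 6.72 in the medium control. On LSK day 1 it read 10.04, 9.86 and 10.22, on day 2 8.25, 9.63 and 9.77, and on day 3 11.15 and 10.42. The medium control thus lay below all 11 other arrays. The difference from day 0 was -3.06 ± 0.44 (SE) with an adjusted p of 0.0286 in limma, where 0.328% of all genes passed. LSK day 1 was above the control by 3.34 ± 0.44 with an adjusted p of 0.00924 in limma, where 5.20% of all genes passed. The 2 neighbouring genes did not show this step. Hoxb5 differed from day 0 by -0.38 ± 0.57 and Hoxb6 by -0.40 ± 0.62 in the control, each with an adjusted p of 1 in limma, and whether they differed from Hoxb5os was not tested.

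**Figure D3:**
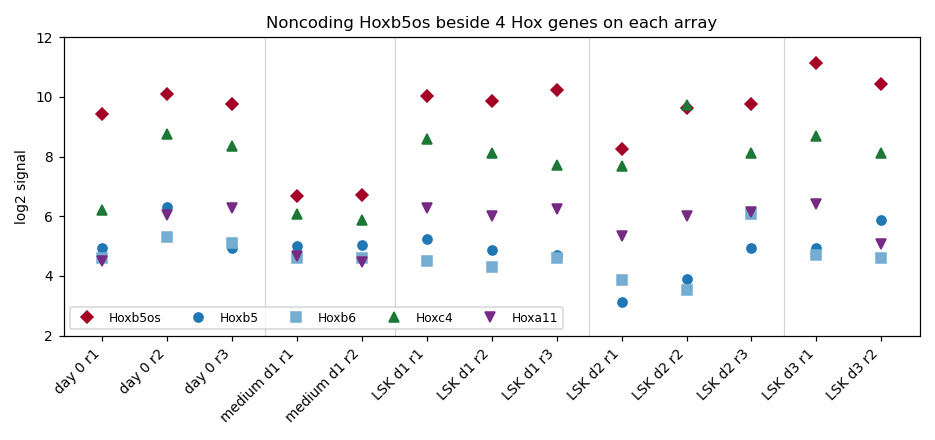
Log2 level of Hoxb5os, Hoxb5, Hoxb6, Hoxc4 and Hoxa11 on each of the 13 arrays, 1 point per gene and array, with vertical lines between groups. Hoxb5os reads 6.69 and 6.72 in the medium control and between 8.25 and 11.15 on the other arrays, while Hoxb5 and Hoxb6 lie between 4.61 and 6.31 in both the control and day 0.

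After 1 day with LSK cells, Hoxa9 and Hoxc10 were the expressed genes whose arrays lay below all day 0 arrays. Hoxa9 read 10.56, 10.17 and 9.99, with the lowest day 0 array at 10.84. Hoxc10 read 5.56, 5.43 and 4.77, with the lowest day 0 array at 6.29. For both genes the medium control arrays were below all day 0 arrays too. They read 10.74 and 10.65 for Hoxa9 and 5.56 and 5.68 for Hoxc10. From that control, LSK day 1 differed by -0.45 ± 0.28 (SE) for Hoxa9 (adjusted p 0.433 in limma). For Hoxc10 it differed by -0.36 ± 0.90 (adjusted p 0.978 in limma). Hoxc5 read 7.49, 7.59 and 7.84 and Hoxc8 10.06, 9.41 and 9.48, both above all day 0 arrays. In limma, 0 of 23 Hox genes passed (1 had an unadjusted p under 0.05), against 2.15% of all genes. Hoxa9 differed by -0.99 ± 0.25 (SE) with an adjusted p of 0.0745 in limma, Hoxc10 by -1.50 ± 0.80 with 0.396, and Hoxc5 by 0.78 ± 1.07 with 0.855. The first LSK day 2 array widens the shared error. Fitted without it, Hoxc10 (± 0.39, adjusted p 0.0466 in limma) and Hoxa9 (± 0.23, adjusted p 0.0304) fell, 2 of 23 against 10.6% of all genes. The stromal marker median was -1.31 in the same comparison, and its part in these values was not tested. Hoxc5 was 0.39 without the second day 0 array. The arrays of the 2 groups did not overlap for 6 of the 23 genes, or 26.1%, against 39.0% of all genes.

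On days 2 and 3, Hoxc10 again read lower than at day 0. It read 2.47, 6.36 and 5.09 on day 2 and 4.43 and 4.87 on day 3. Thus 7 of the 8 co-culture arrays were below all day 0 arrays, and the second day 2 array, at 6.36, was not. Both medium control arrays, at 5.56 and 5.68, were below all day 0 arrays as well. Against these control arrays, 6 of the 8 co-culture arrays were below both and 1 was above both. Hoxc13 read 3.35, 5.25 and 6.71 on day 2 and 6.43 and 4.86 on day 3. Hoxa7 split the day 3 arrays, at 7.18 and 3.17. On day 2, 0 of 23 genes passed in limma (4 had an unadjusted p under 0.05: Hoxa5, Hoxb5, Hoxc10 and Hoxc13), against 2.26% of all genes. The day 2 difference of Hoxc10 was -2.11 ± 0.80 (SE, adjusted p 0.147 in limma), and without the first day 2 array it was -1.02 (adjusted p 0.212). Hoxc13 differed by -1.81 ± 0.74 (adjusted p 0.165 in limma), or -0.94 without that array. Hoxa10, at 4.29, 7.22 and 7.67 on day 2, differed by -1.45 ± 0.76 (adjusted p 0.246 in limma), or -0.40 without it. Centring each array on its median gave -1.20 for Hoxc10, -0.91 for Hoxc13 and -0.54 for Hoxa10. Each of these 3 differences was smaller without that array, and 0 of 23 genes passed then too, against 2.48% of all genes. Day 2 and day 0 arrays did not overlap for 3 of 23 genes, or 13%, against 22.7% of all genes.

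On day 3, 0 of 23 genes passed in limma (Hoxc10 had an unadjusted p under 0.05), against 0.819% of all genes. Hoxc10 differed from day 0 by -2.10 ± 0.90 (SE, adjusted p 0.34 in limma). Fitted without the first LSK day 2 array, which is in neither group, its error was 0.44 and its adjusted p 0.0274, 1 of 23 against 7.69% of all genes. Hoxa7 differed by -1.41 ± 1.21 (adjusted p 0.703 in limma) and Hoxc13 by -1.27 ± 0.83 (adjusted p 0.568 in limma). Without the second day 3 array the Hoxa7 difference turned to 0.60, since the low value of 3.17 is on that array, and the Hoxc13 difference was -0.48. Without the first day 3 array they were -3.41 and -2.05. Arrays of the 2 groups did not overlap for 5 of 23 genes, or 21.7%, against 35.6% of all genes.

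**Figure D4:**
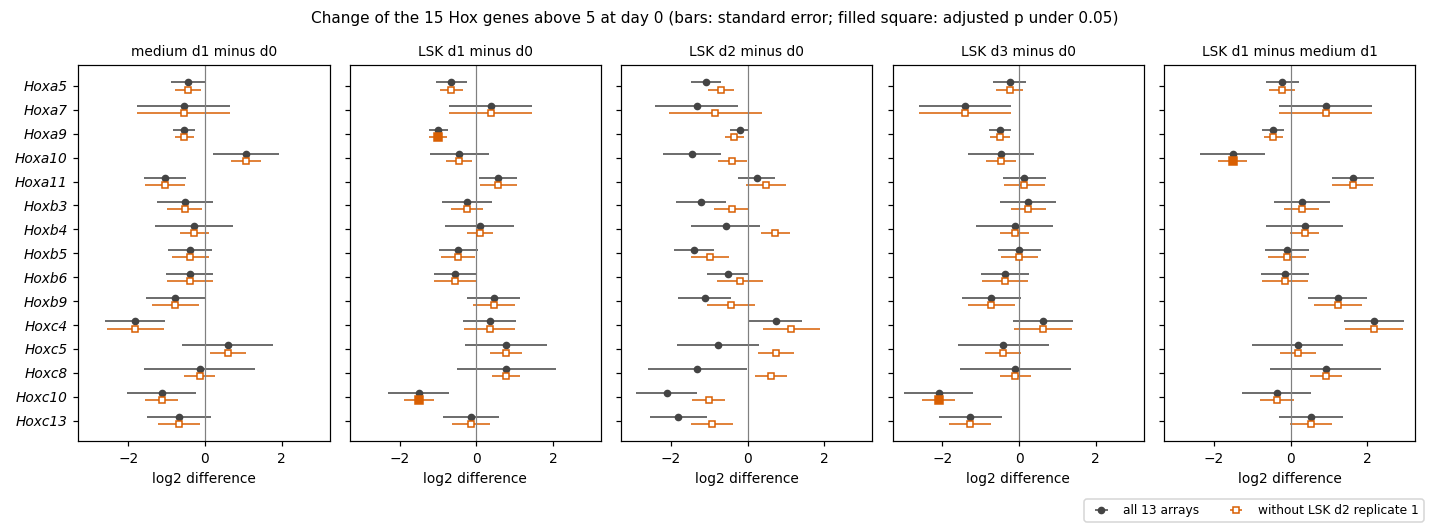
Log2 difference (± SE, limma) of the 15 expressed Hox genes in the 5 comparisons, with all 13 arrays (circles) and without the first LSK day 2 array (squares; filled where adjusted p is under 0.05). No circle passes; Hoxa9 and Hoxc10 on LSK day 1, Hoxc10 on day 3 and Hoxa10 against the medium control are filled.

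The medium control and LSK day 1 were both harvested at 24 h and were compared with each other. Irradiation is stated for the co-cultured stroma and unstated for the control. Spike-in means were 4.58 and 4.86 in the control and 10.39, 12.45 and 11.01 on LSK day 1. What LSK cells add cannot be told apart from these differences. Hoxc4 and Hoxa11 were higher with LSK cells and Hoxa10 lower, none past the test. Hoxc4 read 8.58, 8.12 and 7.72 with LSK cells against 6.08 and 5.87 in the control. Hoxa11 read 6.26, 6.02 and 6.25 against 4.65 and 4.47. Hoxa10 read 7.74, 6.83 and 7.64 against 8.81 and 9.02. All 8 co-culture arrays of days 1 to 3 lay above both control arrays for Hoxc4 and Hoxa11, and below both for Hoxa10. Set against day 0, the Hoxc4 co-culture arrays (7.69 to 9.74) lay within the day 0 range of 6.22 to 8.77 but for 1 array, as did those of Hoxa11 (5.08 to 6.40, day 0 range 4.50 to 6.26). In limma, 0 of 23 genes passed (2 had an unadjusted p under 0.05, Hoxc4 and Hoxa11), against 5.20% of all genes. The difference was 2.17 ± 0.78 (SE) for Hoxc4 (adjusted p 0.144 in limma), 1.62 ± 0.55 for Hoxa11 (adjusted p 0.122) and -1.51 ± 0.85 for Hoxa10 (adjusted p 0.371). Without the first LSK day 2 array, Hoxa10 passed (± 0.38, adjusted p 0.0309 in limma), 1 of 23 against 17.2% of all genes. Groups did not overlap for 13 of 23 genes, or 56.5%, against 62.5% of all genes. The day 0 and medium arrays, and the LSK day 1 arrays, are shared among these comparisons.

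**Figure D5:**
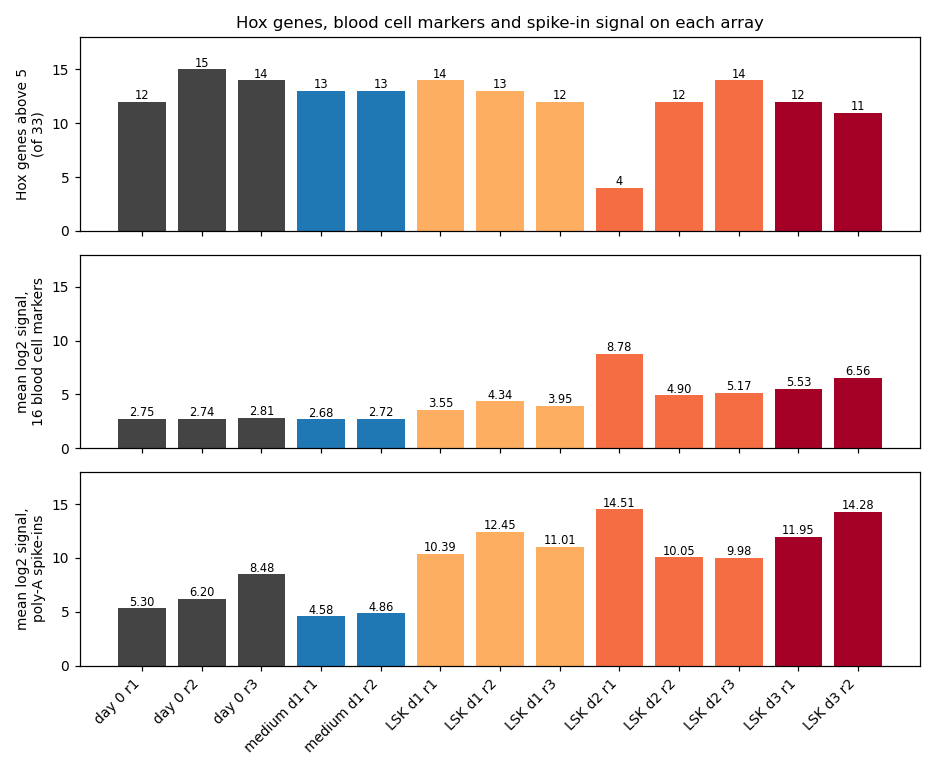
Bars for each of the 13 arrays, in group order, show the number of Hox genes above 5, the mean log2 level of 16 blood cell markers and the mean log2 level of 4 poly-A spike-in probe sets. The first LSK day 2 array has 4 Hox genes above 5, a blood marker mean of 8.78 and a spike-in mean of 14.51.

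Over the 12 arrays other than the first LSK day 2 array, the 15 expressed genes ranged over 1.47 to 4.27 log2 each, with a median range of 2.19. The 8683 genes above 5 at day 0 had a median range of 2.22 over the same arrays. In the co-culture comparisons the median difference of the 15 genes was -0.14 on LSK day 1, -1.12 on day 2 and -0.36 on day 3, where the medians of all tested genes above 5 at day 0 were -0.09, -0.73 and -0.19. The day 2 median was -0.40 without the first array, against -0.34 for all such genes.

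Of 9 listed cofactors of Hox proteins, 8 were measured and 5 were above 5 at day 0, where 47.7% of all genes were. The 5 included Meis2 at 10.85 ± 0.19 (SD, n = 3), Pbx3 at 9.73 ± 0.61 and Pbx2 at 9.45 ± 0.76. In limma, 0 of 8 cofactors passed in any of the 5 comparisons. Meis1, a partner of Hoxa9 in blood progenitors, read 8.16, 7.81 and 7.33 at day 0, 7.17 and 7.16 in the medium control, 6.33, 6.17 and 5.97 on LSK day 1, 7.80, 6.07 and 6.66 on day 2, and 6.66 and 6.14 on day 3. Each LSK day 1 array was below each array without LSK cells. The day 1 difference from day 0 was -1.61 ± 0.40 (SE, adjusted p 0.0733 in limma). Without the first LSK day 2 array the adjusted p was 0.00951 on day 1, 0.0462 on day 2 and 0.0271 on day 3. Pknox1, another cofactor, read 7.02 and 6.80 in the medium control and no more than 5.47 elsewhere. Its difference from day 0 was 2.79 ± 0.61 (adjusted p 0.128 in limma, or 0.0376 without that array).

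Of 25 listed Polycomb and Trithorax regulators, 24 were measured and 20 were above 5 at day 0 (47.7% of all genes). The 20 included Eed at 11.82 ± 0.49 (SD, n = 3), Bmi1 at 11.21 ± 0.51 and Ezh2 at 10.93 ± 0.34. Rnf2, the ubiquitin ligase of Polycomb complex 1, was 1 of 24 that passed between LSK day 1 and the medium control, a share near the 5.20% of all genes, and 0 of 24 passed in the other comparisons with all arrays. It read 9.40, 9.23 and 9.58 with LSK cells and 10.91 and 10.97 without, a difference of -1.53 ± 0.35 (SE, adjusted p 0.0396 in limma). Without the first LSK day 2 array, Rnf2 also passed against day 0 on LSK day 1 (adjusted p 0.0462 in limma) and day 3 (adjusted p 0.0379). Of 18 listed retinoic acid pathway genes, 16 were measured, 9 were tested and 5 were above 5 at day 0 (47.7% of all genes). Among these were Rxra at 9.01 ± 0.31 (SD, n = 3), Rdh10 at 8.79 ± 0.45 and Rxrb at 8.11 ± 0.30. Receptors Rara and Rarb, the synthesising enzyme Aldh1a2 and the degrading enzyme Cyp26a1 lay at 2.28 at day 0. The related Rarg and Aldh1a1 had day 0 means of 5.44 and 4.32. Aldh1a1 had a mean of 9.93 in the medium control, a difference that did not pass (adjusted p 0.19 in limma). The receptor partner Rxrb passed in 2 comparisons, 1 of 9 in each, against 5.20% and 2.26% of all genes. It read 7.76, 8.24 and 8.32 at day 0, 7.27 and 7.41 in the medium control, 9.95, 10.00 and 9.58 on LSK day 1, 11.98, 10.58 and 9.44 on day 2, and 9.56 and 10.13 on day 3, so all 8 co-culture arrays were above all 5 others. The difference was 2.50 ± 0.59 (SE) between LSK day 1 and the control (adjusted p 0.0438 in limma) and 2.56 ± 0.53 between day 2 and day 0 (adjusted p 0.0436). Blood markers and spike-ins were also higher on the 8 co-culture arrays, and their part in it was not tested. Without the first LSK day 2 array, and in the order medium control, LSK days 1, 2 and 3 against day 0 and LSK day 1 against the control, limma called 1, 1, 1, 1 and 2 of 8 cofactors, 1, 3, 0, 2 and 4 of 24 Polycomb and Trithorax genes and 0, 2, 1, 1 and 2 of 9 retinoic acid genes, where 1.36%, 10.6%, 2.48%, 7.69% and 17.2% of all genes were called.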

How the data were processed

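Per the labels' protocols, total RNA was isolated with a column kit, amplified to biotin-labelled antisense RNA and put on Affymetrix arrays. The values are the authors' deposited log2 levels for 45101 probe sets, from 2.28 to 15.74; the submitters' processing notes list RMA and GCRMA without saying which made them. The lowest value took up 31.2% to 43.8% of an array, so changes of dim genes are compressed. Gene names came from the platform annotation (34945 probe sets with 1 symbol, 932 with several, 9160 with none; 64 controls left out).

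A probe set entered the tests where 2 or more arrays exceeded the median of all values, 2.38, with 1 kept per gene, giving 12205 genes and 23 of the 33 Hox genes. All 13 arrays entered 1 fit in limma 3.58.1 (R 4.3.3; lmFit, contrasts, eBayes), with Benjamini-Hochberg adjustment over the 12205 genes. Grouping followed the titles. The script was tested on simulated data. Figures used Python 3.11.15. The number of arrays limits the precision.

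Values per array are given for Hox genes above 5 at day 0. Statistics are given for those past the threshold and the 3 largest changes in each comparison. Hoxb5 and Hoxb6 beside Hoxb5os, and Meis1 and Pknox1, were added after their values were seen. So were Hoxa9 and Hoxc10 for LSK day 1 against the control. From the cofactor, chromatin, retinoic acid and noncoding lists, genes past the threshold and up to 3 with the highest day 0 mean were named. Rara, Rarb, Rarg, Aldh1a1, Aldh1a2 and Cyp26a1 were named beyond that rule. Marker lists are given by counts and levels, with Prrx1, Pdgfrb and Vim added. The members and lists were chosen with earlier results of these data known. Alternatives covered the filter, scaling, probe set rule, variance prior, array weights, groups fitted, a replicate block and leaving out each array. Removing both the first LSK day 2 and the second LSK day 3 array was added after seeing the data.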

Additional observations from a re-analysis of the deposited data

Results flagged for a closer look

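Among probe sets of the Hox loci that no comparison used, 3 read more than 1 log2 unit above every day 0 and medium control array on some co-culture array, in each case the first LSK day 2 array alone; smaller steps on that array were not listed. A probe set of Hoxd3os1 read 3.56 there, against at most 2.28 without LSK cells. A further probe set of Hoxa3 read 3.60, against at most 2.52. A further probe set of Hoxa11os, a noncoding RNA from the strand opposite Hoxa11, read 5.49, against at most 2.28. All 3 lie on the array with the Gapdh 3' minus 5' difference of 8.96, and the part of that in the readings was not tested.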

How the results depend on the processing

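The count of 15 expressed genes lay between 12 and 16 in all 9 alternatives, 13 to 15 of them when a day 0 array was left out. No Hox gene passed in the fit reported; some did under other settings. Array weights called 6 of 23 Hox genes for the medium control against day 0 (Hoxa2, Hoxa9, Hoxa10, Hoxa11, Hoxc4 and Hoxc10), where 3585 of 12205 genes were called. They called 2 for LSK day 1 (Hoxa9 and Hoxc10), where 3583 of all genes were called. For LSK day 1 against the control they called 8 of 23, where 6423 of 12205 genes were called. In that last comparison, fitting only the compared groups gave 5, where 4574 of all genes were called, and no filter gave 1 (Hoxa2). Removing both the first LSK day 2 and the second LSK day 3 array gave 2, where 2579 of all genes were called. The same removal gave 1 for LSK day 1 against day 0 (Hoxa9), where 1657 were called. Leaving out single arrays gave, in the order medium control, LSK days 1, 2 and 3 against day 0 and LSK day 1 against the control, 0 to 0, 0 to 2, 0 to 4, 0 to 1 and 0 to 1 Hox calls. The 4 (Hoxb3, Hoxb5, Hoxb6 and Hoxc13, lower) came without the third LSK day 2 array, where 3497 of all genes were called. Further counts over all genes, among them those for LSK day 1 against the control, follow in the next paragraph. Hoxa7 on day 3 ranged from -3.41 to 0.60 when 1 array was left out, reversing to 0.60 without the second day 3 array and with both removed.

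Calls over all genes moved more. In the same order the main counts were 40, 263, 276, 100 and 635, and leaving out 1 array gave 8 to 166, 9 to 1290, 26 to 3497, 4 to 939 and 7 to 2103. For the medium control they were 12 with a stricter filter, 4 with centring, 3585 with array weights, 8 with the replicate block, 83 with only the compared groups and 371 with both arrays removed. For LSK day 1 they were 162 with no filter, 108 with the stricter filter, 125 with centring, 152 with a trend and robust prior, 3583 with weights, 103 with the block, 1786 and 1657. For day 2 they were 106 with no filter, 97 with centring, 2542 with weights, 26 with the block, 0 with only the compared groups and 422. For day 3 they were 41 with the stricter filter, 66 with quantile scaling, 41 with centring, 167 with weights, 4 with the block, 26 and 690. For LSK day 1 against the control they were 385, 206 with centring, 6423 with weights, 208 with the block, 4574 with only the compared groups and 2579 with both arrays removed. Samples with the same replicate number correlated by -0.371 to 0.261 in their deviations from group means. Such deviations cancel within each small group, so these correlations cannot show whether the numbers pair the arrays. The replicate block gave 0 Hox calls in each comparison. The causes of these shifts were not tested. Centring moved the median of all genes on day 2 from -0.29 to 0.62, with 9 of 15 expressed Hox genes lower, and turned the day 2 difference positive for 4 of the 15: Hoxa9 (-0.21 to 0.70), Hoxb4 (-0.57 to 0.34), Hoxb6 (-0.52 to 0.39) and Hoxc5 (-0.77 to 0.14). Quantile scaling turned Hoxa9 to 0.06.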

Other observations

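Some expressed Hox genes carried values that agreed to every deposited digit on several arrays of different groups. Hoxb6 read 4.61 on 5 of 13 arrays, Hoxb5 read 4.94 on 4, Hoxa5 read 7.68 on 4, Hoxb3 read 7.06 on 3 and Hoxc4 read 8.12 on 3. Genes not above 5 had such repeats as well, among them Hoxb13 at 3.67 on 8 arrays, Hoxc6 at 4.05 on 7 and Hoxa3 at 3.51 on 6. A further probe set annotated with both Hoxb8 and Hoxb7 read between 2.54 and 3.84 on the 13 arrays, and Hoxb8 had no probe set of its own. What makes the repeated values was not tested.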
